A study of Homo sapiens with 8 samples.

Results

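Translation factors and aminoacyl-tRNA synthetases were taken as every gene whose symbol begins with EIF1 to EIF6, EEF, GSPT, EPRS, FARSA or FARSB, is ETF1, or has the form of a tRNA synthetase symbol (letters followed by ARS, ARS1 or ARS2). Of 7615 pairs of poly(A) sites from 3656 genes in the 3 deposited tables, 90 pairs from 37 genes met this rule, which used the symbol alone and no measured value. Of the 37 genes, 35 encode a translation factor, a protein that modifies or regulates one, or a tRNA synthetase. The other two were taken by their symbols only: EIF1AD, which is named for an eIF1A-like domain, and EIF3J-DT, a long non-coding RNA gene that is divergent to EIF3J. The tables listed 68 of these pairs (33 genes) for HNRNPC knockdown (KD), 63 pairs (32 genes) for PABPC4 KD and 80 pairs (32 genes) for double KD, and 49 pairs of 27 genes stood in all 3 tables.

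Initiation factors bring the small ribosomal subunit to the mRNA cap and the start codon, elongation factors deliver charged tRNAs and move the ribosome, and release factors end synthesis at the stop codon. Aminoacyl-tRNA synthetases attach each amino acid to its tRNA. The cap-binding complex also contacts poly(A)-binding proteins through eIF4G, so these factors meet the poly(A) tail at the start of translation. Alternative polyadenylation decides which 3′ end a transcript of such a gene carries, and with it the length of the 3′ UTR or, where the site lies in an intron, the coding sequence.

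The cells were MDA-MB-231, an established line of human triple-negative breast cancer. In them, guide RNAs and CRISPR interference (CRISPRi) lowered transcription of HNRNPC, of PABPC4 or of both. HNRNPC is a mainly nuclear RNA-binding protein, and PABPC4 is a poly(A)-binding protein that shuttles between nucleus and cytoplasm. Each of 4 groups had 2 replicates: control cells with a pair of non-targeting guides (sgCTRL-sgCTRL), HNRNPC KD (sgHNRNPC-sgCTRL), PABPC4 KD (sgCTRL-sgPABPC4) and double KD (sgHNRNPC-sgPABPC4), so that each of the 8 samples carried 2 guides. RNA 3′ ends were sequenced from the poly(A) tail, and the deposited value is logAPAR, a natural log. It says by what factor a KD multiplied the usage of a proximal site relative to a distal one, with control as the reference. A negative logAPAR is a shift to the distal site (3′ UTR lengthening where both sites lie in the 3′ UTR) and a positive one a shift to the proximal site. Neither HNRNPC nor PABPC4 was listed (0 pairs), and the tables hold no expression values, so depletion of the targets and markers of the cell line could not be checked. One table carries abbreviations of both targets in its name and was taken as that of PABPC4 KD because the other two tables had the other KDs in their names; the PABPC4 KD values below hold only if this is right.

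The tables give no value per library. Every p-value and interval below therefore covers counting error alone, with nothing for how replicates varied, and the total depth of a library is unknown. At genes with 3 or more sites shared by the tables, the logAPAR values and their errors were solved for the normalised reads behind each site in each group, both replicates summed. This was possible for 8 of the genes described here, with 26 sites, at a median of 7.77 reads per site in control, 13.3 after HNRNPC KD, 13.2 after PABPC4 KD and 15.5 after double KD. Read totals and shares below cover these shared sites only. How often intervals of different groups lie apart over all 681 solved genes was not counted. Nothing particular to a gene is therefore read from intervals that do. Most pairs were measured with little precision: a pair of median standard error reached p 0.01, the threshold used throughout, only beyond 2.07 (HNRNPC KD), 2.05 (PABPC4 KD) or 2.08 (double KD) in absolute logAPAR.

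Sites in the tables are named by a transcript or by a genome position. Of the 97 sites of these genes, 46 are transcript ends, of which 39 were found with the same version in Gencode release 44 on hg38, and 51 are positions, of which 5 fall inside their own gene on hg38. The positions therefore belong to another genome build, which is not named, and were neither converted nor read for sequence. The last 30 bases of transcript ends at the genes on which the results turn are given here as genomic DNA on hg38, 5′ to 3′ on the strand of the gene. Capitals mark a poly(A) signal, AATAAA or its common variant ATTAAA, where the 30 bases hold one. An end called intronic or retained-intron here is the end of a transcript annotated with the type retained intron. Whether such an end lies within an intron was not checked.
EIF2AK2 distal end (chromosome 2, 37099210, minus strand): cttgaAATAAAtgtttattagaaaaaccaa
ETF1 distal end (chromosome 5, 138506095, minus strand): gagaagagtATTAAAccatatttaagaata
GSPT1 proximal end (chromosome 16, 11872679, minus strand): taccatgttAATAAAatattcaatttgaaa
GSPT1 distal end (chromosome 16, 11868128, minus strand): acAATAAAagttgtcatcttcccttttgaa
EIF4G1 proximal end (chromosome 3, 184325299, plus strand): cccgaatggatcagtatttcaaccagatgg
EIF4G1 distal end (chromosome 3, 184335358, plus strand): aattATTAAAcatgaattcaattaagctca
EIF5 intronic end (chromosome 14, 103341356, plus strand): ataaaAATAAAggtttgattttggtcgttc
EIF5 distal end (chromosome 14, 103345025, plus strand): tttAATAAAgtgtgaaagttgtcaatcaaa
EPRS1 proximal end (chromosome 1, 219987296, minus strand): ctgtgtcggccactggagctgaggacaaag
EPRS1 distal end (chromosome 1, 219968600, minus strand): acaactccagtAATAAAtatcatgaactaa

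The ends without a signal in this set, the proximal ends of EIF4G1 and EPRS1, are also the ends followed by A-rich genomic sequence, with 14 and 15 A in the next 20 bases. Oligo(dT) can prime on such a stretch inside a transcript, and its part in the values of these sites was not tested. The distal end of YARS2 was A-rich too (19 A of 20).

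The first question was how many of these genes switched poly(A) sites in each KD. In HNRNPC KD 1 of 68 pairs (1.47%) passed p 0.01, in ETF1, and the share over all pairs of that table was 2.08%. In PABPC4 KD 1 of 63 pairs (1.59%) passed, in EIF4G1, beside 0.756% of all pairs. In double KD 4 of 80 pairs passed, 2 in EIF2AK2 and 1 each in ETF1 and EIF5, which is 5% beside 4.33% of all pairs. With counts of 1 to 4 pairs, nothing particular to these genes is read from the shares. At an adjusted p of 0.05 (Benjamini-Hochberg over the whole APAlog table), 0 pairs were left after HNRNPC KD (all pairs 0.427%), 0 after PABPC4 KD (0.0168%) and 2 after double KD (2.23%), those of EIF2AK2 and ETF1, both toward the distal site. At an unadjusted p of 0.05 the counts were 5, 7 and 4 pairs in the same order, or 7.35%, 11.1% and 5%, beside 6.77%, 4.03% and 9.12% of all pairs.

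**Figure D1:**
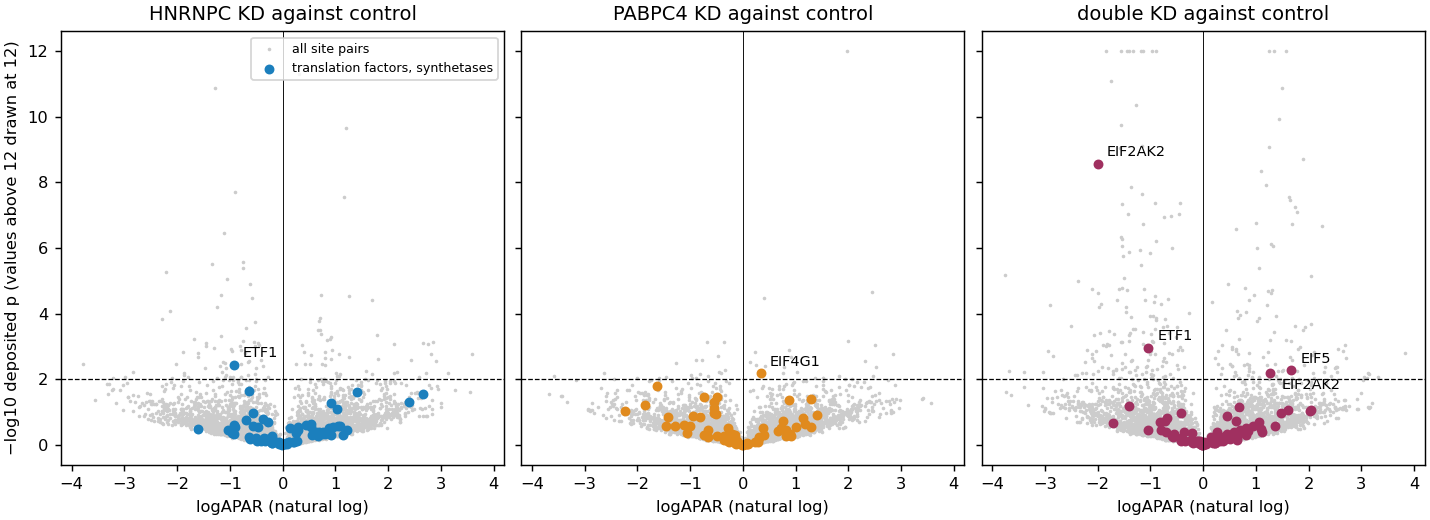
Each panel plots logAPAR (horizontal axis, natural log) against −log10 of the deposited p (vertical axis, values above 12 drawn at 12) for 1 KD against control; grey points are all pairs of the table and coloured points those of translation factors and tRNA synthetases, with the dashed line at p 0.01. The EIF2AK2 pair at a logAPAR of −1.99 after double KD stands apart, and the other labelled pairs lie close to the line.

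The values scattered around 0 in each table. The median logAPAR of the pairs was 0.014 after HNRNPC KD, −0.14 after PABPC4 KD and 0.17 after double KD, against 0.0082, 0.0099 and 0.0085 over all pairs. Over the 49 pairs in all 3 tables the double KD median was 0.027, and HNRNPC KD and PABPC4 KD had 0.040 and −0.14. In HNRNPC KD 34 of 68 pairs were negative (50%), after PABPC4 KD 37 of 63 (58.7%) and after double KD 34 of 80 (42.5%), beside 49.6%, 49.6% and 49.5% of all pairs. Pairs of 1 gene share sites, so they are not separate measurements. With 1 pair a gene, the one measured with the smallest error, 15, 17 and 15 of 27 genes were negative in the same order.

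Among the regulators of initiation, EIF2AK2 carried the shift with the smallest p. It encodes PKR, the kinase that is activated by double-stranded RNA and phosphorylates the α subunit of eIF2, which lowers initiation. The gene (ENSG00000055332, chromosome 2, 37099210 to 37157522 on hg38, minus strand) was listed with 4 sites: positions 37333652, 37331842 and 37330344 (sites 1, 2 and 3, from proximal to distal), and an annotated protein-coding end (site 4), which is the last base of the gene and carries the AATAAA shown above. For site 3 against this distal end, logAPAR was −0.57 after HNRNPC KD (standard error 0.35, p 0.109) and −0.11 after PABPC4 KD (0.39, p 0.770). In double KD it was −1.99 (standard error 0.33, 95% interval −2.65 to −1.33, p 2.71e-09, adjusted p 7.96e-07 in the APAlog table). The ratio of site 3 to the distal end after double KD was 0.137 of that in control (interval 0.0710 to 0.263).

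The solved reads show which site moved. Site 3 held 233.8 normalised reads in control (95% Poisson interval 204.8 to 265.8), 205.6 after HNRNPC KD (178.4 to 235.7), 206.5 after PABPC4 KD (179.3 to 236.7) and 89.0 after double KD (71.5 to 109.5). Only the double KD interval lay apart from the other three. The distal end held 14.1 reads in control (7.7 to 23.6), 21.9 after HNRNPC KD (13.7 to 33.2), 13.9 after PABPC4 KD (7.6 to 23.4) and 39.3 after double KD (27.9 to 53.6). Here double KD was highest, its interval apart from those of control and PABPC4 KD and overlapping that of HNRNPC KD. Normalised reads after double KD were thus lower at site 3 and higher at the distal end. These reads were solved from the same values that gave the call, so their intervals are no separate support for it. How often a site of any solved gene has such a gap was not counted. As a share of the reads at the 4 sites, the distal end took 5.39% in control (Wilson 95% interval 3.24 to 8.83%), 8.99% after HNRNPC KD (6.01 to 13.3%), 5.82% after PABPC4 KD (3.49 to 9.53%) and 27.4% after double KD (20.8 to 35.2%).

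Reads over the 4 EIF2AK2 sites summed to 261.5, 243.4, 240.0 and 143.3 in control, HNRNPC KD, PABPC4 KD and double KD. The double KD total had an interval of 121 to 169 and lay below those of the other groups, the lowest of which started at 211. The share of all solved genes with such a gap was not counted. In a bulk sample, fewer cells with the transcript and fewer transcripts per cell cannot be told apart. Sites 1 and 2 were rare, at 5.1, 3.1, 1.7 and 3.5 reads for site 1 and 8.5, 12.8, 17.9 and 11.6 for site 2, in the same order of groups. Site 2 against site 3 had a logAPAR of 0.54 after HNRNPC KD (p 0.235), 0.87 after PABPC4 KD (p 0.0426) and 1.28 after double KD (standard error 0.47, p 0.00652, adjusted p 0.174 in the APAlog table). This pair shares site 3 with the pair above.

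**Figure D2:**
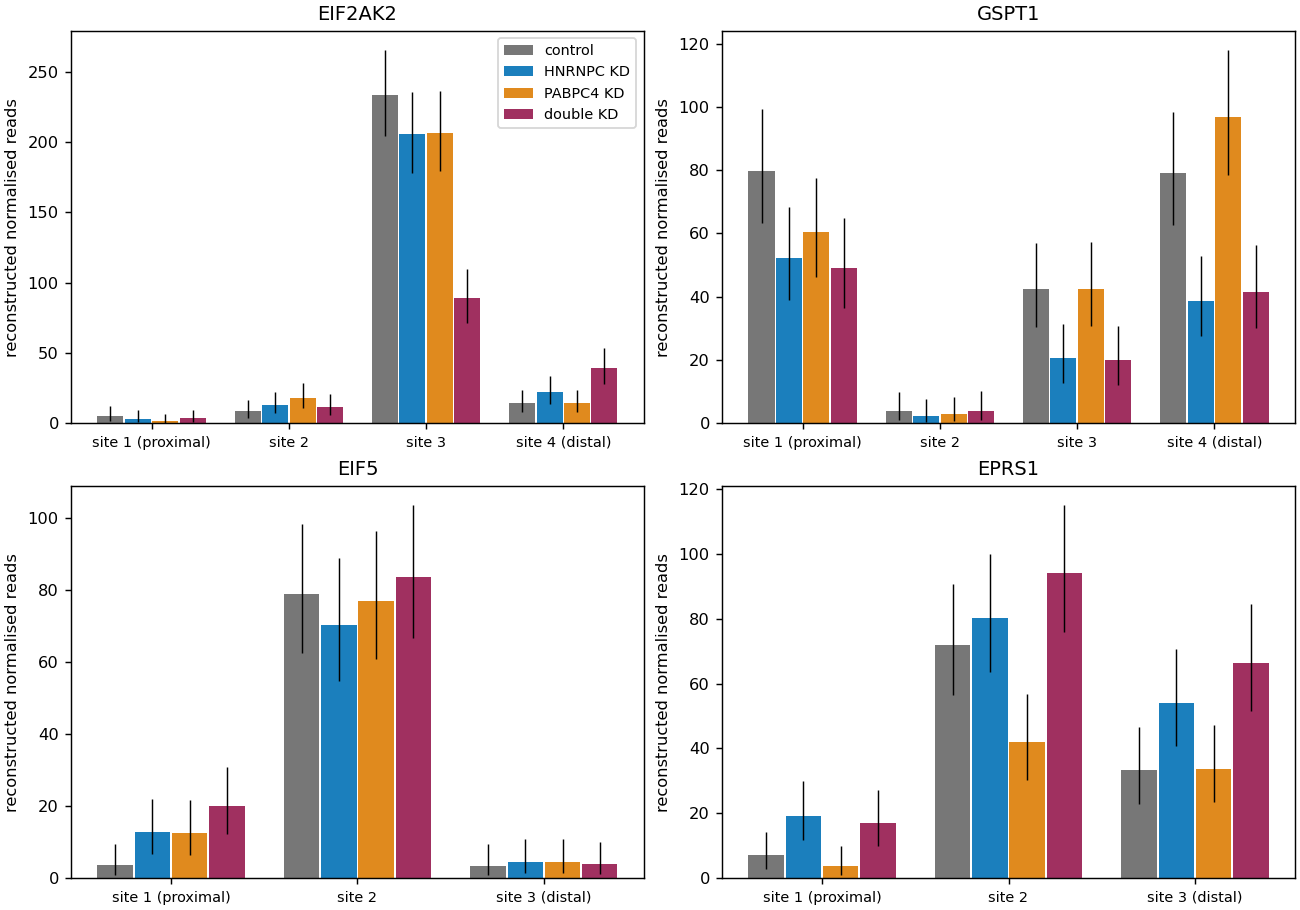
Bars give the normalised reads solved for each poly(A) site (horizontal axis, ordered from proximal to distal) in the 4 groups, both replicates summed, with 95% Poisson intervals as lines; panels show EIF2AK2, GSPT1, EIF5 and EPRS1. Site 3 of EIF2AK2 falls to 89.0 reads after double KD while site 4 rises to 39.3, and the 4 sites of GSPT1 sum to fewer reads after HNRNPC KD and double KD.

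The EIF2AK2 values of the single KDs and of double KD were compared directly in differences in which the control cancels. The squared errors of both tables were added, which gives an upper bound on the error since the control then enters as noise. Double KD minus PABPC4 KD was −1.88 (standard error 0.51, interval −2.88 to −0.87, p 0.000258, Benjamini-Hochberg adjusted p 0.0466). It was the 1 pair of 49 past p 0.01 in this difference and 1 of 3 past p 0.05, beside 1.90% of all 4692 shared pairs at p 0.01, 4.80% at p 0.05 and 0.554% at an adjusted p of 0.05. Double KD minus HNRNPC KD was −1.42 (standard error 0.49, interval −2.38 to −0.47, p 0.00354, Benjamini-Hochberg adjusted p 0.308). Again it was the 1 pair of 49 past p 0.01 and also the 1 pair past p 0.05, beside 1.56% of all shared pairs at p 0.01 and 3.22% at p 0.05, and 0 of the 49 pairs passed an adjusted p of 0.05, beside 0.469%.

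With the error computed from the solved reads, which exists for 30 of the 49 pairs, the 2 differences of this EIF2AK2 pair had p 2.46e-08 (Benjamini-Hochberg adjusted p 6.37e-06 over the pairs with reads) and p 1.49e-06 (adjusted p 0.000385). In double KD minus PABPC4 KD site 2 against the distal end passed p 0.01 as well (−1.47, p 0.00270, adjusted p 0.0916), which made 2 of 30 pairs beside 5.30% of all pairs with reads. In double KD minus HNRNPC KD 1 of 30 passed, beside 3.25%. Had the single KDs added up, site 3 against the distal end would have moved less, and double KD lay −1.31 from their sum (interval −2.53 to −0.08 with the upper-bound error, p 0.0361, Benjamini-Hochberg adjusted p 1). None of the 49 pairs passed p 0.01 in this departure, beside 1.04% of all pairs, and 4 passed p 0.05, beside 3.37%. With the error from solved reads EIF2AK2 passed p 0.01 (p 0.00746, adjusted p 0.386), 1 of 30 pairs beside 2.24%. A departure from additivity was therefore not called in EIF2AK2 after adjustment.

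EIF2AK1, the kinase HRI that responds to haem shortage, phosphorylates the same subunit of eIF2. The 1 pair of EIF2AK1 in all 3 tables had a logAPAR of −0.19 after HNRNPC KD (p 0.712), −0.94 after PABPC4 KD (p 0.130) and −0.13 after double KD (p 0.804), so no shift was detected in this kinase at its depth. The standard errors of the pair were 0.51, 0.62 and 0.51.

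Of the release factors, ETF1 gave the 1 call at p 0.01 among 7 pairs after double KD, beside 4.33% of all pairs. The median logAPAR of the 7 was 0.16. ETF1 (ENSG00000120705, chromosome 5, 138506095 to 138543236, minus strand) encodes eRF1, which recognises the stop codons. Its 1 pair set a position-named proximal site (137842924) against the annotated protein-coding end, the last base of the gene, with the ATTAAA shown above. The logAPAR was −0.93 after HNRNPC KD (standard error 0.32, interval −1.55 to −0.30, p 0.00358, adjusted p 0.256 in the APAlog table) and −1.04 after double KD (0.32, −1.67 to −0.42, p 0.00108, adjusted p 0.0484). In PABPC4 KD it was −0.14 (0.27, p 0.597). These values correspond to a ratio of the proximal to the distal site of 0.395, 0.353 and 0.867 of that in control. Among the pairs of these genes, ETF1 was the 1 to pass p 0.01 both after HNRNPC KD and after double KD. The 2 tables share their control, and the share of all pairs that pass in both was not counted. Nothing is therefore read from this overlap. Double KD minus PABPC4 KD, a comparison without the control, was −0.90 in ETF1 and did not pass p 0.01 (interval −1.72 to −0.08, upper-bound p 0.0312, Benjamini-Hochberg adjusted p 0.874). Double KD minus HNRNPC KD was close to 0, at a ratio of 0.894.

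GSPT1 (ENSG00000103342, chromosome 16, 11868128 to 11916082, minus strand) encodes eRF3a, the GTPase partner of eRF1. Its annotated protein-coding ends lie 4551 nt apart, each with an AATAAA in the sequences above, and 2 position-named sites were listed between them. For the proximal against the distal annotated end, logAPAR was 0.29 after HNRNPC KD (p 0.275), −0.48 after PABPC4 KD (p 0.0351) and 0.16 after double KD (p 0.556). None of the 6 GSPT1 pairs passed p 0.01 in a table, beside 2.08%, 0.756% and 4.33% of all pairs in the same order. Double KD minus PABPC4 KD was 0.64 for this pair (p 0.0683 with the upper-bound error and p 0.0173 with the error from solved reads, adjusted p 0.271). The proximal end took 39.0% of GSPT1 reads in control (Wilson 95% interval 32.6 to 45.8%), 46.0% after HNRNPC KD (37.1 to 55.1%), 29.8% after PABPC4 KD (24.0 to 36.5%) and 42.9% after double KD (34.2 to 52.1%), and each interval overlapped that of control. The interval after HNRNPC KD lay above that after PABPC4 KD, and both groups with HNRNPC depleted had the higher shares. The summed reads of GSPT1 were 204.8 in control and 202.4 after PABPC4 KD but 113.6 after HNRNPC KD and 114.3 after double KD. Intervals of the totals were 178 to 235, 175 to 232, 94 to 136 and 94 to 137. Both groups with HNRNPC depleted lay below both others. The share of all solved genes whose totals separate in this way was not counted, and library depth is unknown. A part of HNRNPC in the amount of GSPT1 RNA was not tested.

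Among the eIF4 factors and eIF4E-binding proteins, EIF4G1 had the most precise pair, which was also the most precise of all the genes described here. The gene (ENSG00000114867, chromosome 3, 184314495 to 184335358, plus strand) encodes eIF4G, the scaffold that joins the cap-binding protein eIF4E, the helicase eIF4A and poly(A)-binding protein. Its proximal site is the end of a transcript annotated as a target of nonsense-mediated decay and lies 10059 nt before the protein-coding end. The logAPAR was 0.13 after HNRNPC KD (standard error 0.13, p 0.294), 0.34 after PABPC4 KD (0.13, interval 0.10 to 0.59, p 0.00639, adjusted p 0.951 in the APAlog table) and 0.03 after double KD (0.12, p 0.826). In PABPC4 KD this is a ratio 1.41 times that of control (interval 1.10 to 1.80). Double KD minus PABPC4 KD was −0.32 (interval −0.66 to 0.03, upper-bound p 0.0742). The proximal end has no poly(A) signal in its last 30 bases and is followed by 14 A in 20 bases.

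The other genes of this eIF4 group gave no call in any table, namely EIF4E, EIF4E2, EIF4A2, EIF4B, EIF4G3 and EIF4EBP2. EIF4EBP2, a repressor that binds eIF4E, was measured with errors of 0.22 to 0.23 and had values of −0.28, −0.15 and −0.06 after HNRNPC KD, PABPC4 KD and double KD. For EIF4E itself, which binds the cap, the 2 sites shared by all tables had values of 0.13, 0.31 and −0.17 with errors of 0.55 to 0.62. EIF4A2 and EIF4B stood in 1 table each, with values of −0.34 after double KD and 0.82 after PABPC4 KD and errors above 1.

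EIF5, the factor that stimulates GTP hydrolysis by eIF2 at the start codon, shifted to a proximal site after double KD. The gene (ENSG00000100664, chromosome 14, 103333544 to 103345025, plus strand) had a first site by position (103805230), a retained-intron end with the AATAAA shown above, and the protein-coding end, the last base of the gene, in every table. Another position (103808142) was listed after double KD only and is not in the reads below. For the first site against the retained-intron end, logAPAR was 1.40 after HNRNPC KD (standard error 0.62, p 0.0246), 1.29 after PABPC4 KD (0.62, p 0.0395) and 1.68 after double KD (0.60, interval 0.50 to 2.85, p 0.00514, adjusted p 0.154 in the APAlog table). The first site held 3.5 reads in control (0.9 to 9.5), 12.8 after HNRNPC KD (6.7 to 21.9), 12.4 after PABPC4 KD (6.5 to 21.5) and 19.9 after double KD (12.2 to 30.8). Control was the lowest of the groups, and its interval overlapped those of the single KDs and not that of double KD. All 3 values of EIF5 use this one low control count. Between double KD and PABPC4 KD the difference was 0.39 (upper-bound p 0.652). The retained-intron end held 77.9 to 91.9% of the reads at the 3 shared EIF5 sites in each group, and the protein-coding end 3.58 to 4.96%.

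Factors that act with eIF1 at the start codon gave no further call. EIF1, which guards start codon choice, had a retained-intron end 1022 nt before its protein-coding end, and values of −0.07, −0.54 and −0.10 after HNRNPC KD, PABPC4 KD and double KD with errors of 0.31 to 0.33. EIF1AX, which encodes eIF1A, had 4 sites, of which 3 stood in every table, and the middle one of these took 79.7 to 84.2% of their reads in every group. EIF5B, the GTPase of subunit joining, used its distal site for 90.0 to 93.4% of reads in every group. Site choice in EIF1AX and EIF5B thus varied by a few percent of reads between groups, with overlapping Wilson intervals.

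In eIF2, the factor that carries the initiator tRNA, EIF2S3 (the γ subunit, chromosome X, 24054946 to 24078810) gave the values farthest from 0 of all the genes described here, at large errors. A site at 24095650, absent from the PABPC4 KD table, had a logAPAR against the annotated end of 2.66 after HNRNPC KD (standard error 1.21, p 0.0282) and 2.05 after double KD (1.20, p 0.0884). The better measured site at 24096088 had values against the same end of 0.26 after HNRNPC KD (p 0.425), −0.55 after PABPC4 KD (p 0.0483) and 0.02 after double KD (p 0.945). None passed p 0.01. EIF2S1, the α subunit that PKR phosphorylates, was listed in the single KDs only, at −0.93 and −0.27 with errors above 1. EIF2B1, a subunit of the exchange factor of eIF2, stood in the PABPC4 KD table only, at −0.13 (standard error 1.10).

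Subunits of eIF3, the scaffold on the small ribosomal subunit, gave 0 calls at p 0.01 among 11, 8 and 11 pairs after HNRNPC KD, PABPC4 KD and double KD, and 0 also at p 0.05. The shares of all pairs in the same order were 2.08%, 0.756% and 4.33% at p 0.01 and 6.77%, 4.03% and 9.12% at p 0.05. With so few pairs, nothing particular to eIF3 is read from these counts. EIF3A, the largest subunit, had the smallest p of this group after double KD. Its first site against its annotated end had values of 0.44 (p 0.246), 0.39 (p 0.296) and 0.69 (p 0.0676). The first site took 77.9% of the reads at the 3 EIF3A sites shared by the tables (of 4 listed) in control, 85.0% after HNRNPC KD, 83.5% after PABPC4 KD and 87.1% after double KD, lowest in control, with overlapping Wilson intervals. EIF3J, a loosely bound subunit, had few reads, with 11.4, 26.5, 15.3 and 29.9 over its 3 sites in control, HNRNPC KD, PABPC4 KD and double KD. Its totals were lower in both groups with HNRNPC present, and the interval after HNRNPC KD (17 to 39) overlapped those in control (6 to 20) and PABPC4 KD (9 to 25). EIF3H stood at −0.56, −0.01 and −0.69, with p-values of 0.258, 0.989 and 0.147. EIF3L and EIF3M were listed in 2 tables and 1 table, with errors above 1.

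Among elongation factors, EEF1G (the γ subunit of the eEF1 exchange complex, ENSG00000254772, chromosome 11) had a logAPAR of −0.46 after HNRNPC KD (p 0.292), −1.62 after PABPC4 KD (standard error 0.67, interval −2.93 to −0.30, p 0.0160, adjusted p 0.951 in the APAlog table) and −0.37 after double KD (p 0.390). Its distal site, at 62559603 on the minus strand, is the end of a transcript annotated as retained intron. The last base of the gene is 62559596. EEF2, the translocase, was listed after HNRNPC KD and double KD only, at 0.76 and 0.64 with errors of 0.90 and 0.92. The kinase of eEF2, EEF2K, had values of 0.07, 0.07 and −0.11 with errors of 0.43 to 0.48. EEF2KMT, a methyltransferase of eEF2, had values of 1.04 (p 0.0794), −0.81 (p 0.138) and 0.00 (p 0.994). No gene of elongation passed p 0.01 (all pairs 2.08%, 0.756% and 4.33%). At p 0.05 the 1 pair was that of EEF1G after PABPC4 KD (all pairs 4.03%).

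Cytosolic tRNA synthetases were represented by EPRS1, LARS1, NARS1, TARS1 and YARS1. After HNRNPC KD, PABPC4 KD and double KD, 0 of their 11, 6 and 9 pairs passed p 0.01, beside 2.08%, 0.756% and 4.33% of all pairs. At p 0.05, passed by 6.77%, 4.03% and 9.12% of all pairs, there was 1 pair, passing in both single KDs. It was that of YARS1, the tyrosyl-tRNA synthetase. Its logAPAR was −0.64 after HNRNPC KD (standard error 0.28, p 0.0230), −0.74 after PABPC4 KD (0.35, p 0.0345) and −0.21 after double KD (0.27, p 0.434), so the value nearest to 0 was that of double KD. The double KD value of YARS1 lay above the summed single KDs by 1.18 (interval 0.14 to 2.21, upper-bound p 0.0260, Benjamini-Hochberg adjusted p 1). LARS1, the leucyl-tRNA synthetase, had values of −0.21 (p 0.545), −0.50 (p 0.111) and 0.45 (p 0.128) for its best measured pair. The difference of double KD and PABPC4 KD in LARS1 was 0.95 (interval 0.10 to 1.79, upper-bound p 0.0277, Benjamini-Hochberg adjusted p 0.874). Neither difference was called after adjustment.

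EPRS1 (ENSG00000136628, chromosome 1, 219968600 to 220046530, minus strand), the glutamyl-prolyl-tRNA synthetase, had annotated ends 18696 nt apart. The proximal against the distal annotated end gave −0.38 after HNRNPC KD (p 0.166), −0.55 after PABPC4 KD (p 0.0756) and −0.43 after double KD (p 0.107). In reads, the proximal annotated end took 64.2% in control (Wilson 95% interval 55.0 to 72.5%), 52.3% after HNRNPC KD (44.4 to 60.0%), 52.9% after PABPC4 KD (42.0 to 63.5%) and 53.0% after double KD (45.7 to 60.2%). Control was the highest and the 3 KD groups were close together, with overlapping intervals. This end is the one followed by 15 A in 20 bases. A site named by position (220180544) ranked proximal to both annotated ends. It took 6.18% of reads in control, 12.5% after HNRNPC KD, 4.62% after PABPC4 KD and 9.56% after double KD. Against the proximal annotated end its logAPAR was 0.91 after HNRNPC KD (p 0.0532), −0.10 after PABPC4 KD (p 0.884) and 0.63 after double KD (p 0.189). The summed reads of EPRS1 were 112.2, 153.8, 79.4 and 177.6 in control, HNRNPC KD, PABPC4 KD and double KD, highest in both groups with HNRNPC depleted. The intervals of their totals, 130 to 180 and 152 to 206, did not overlap that of PABPC4 KD (63 to 99). The first of them overlapped that of control (92 to 135). For EPRS1 too, the share of all solved genes with such gaps was not counted.

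Mitochondrial synthetases, EARS2, WARS2 and YARS2, charge tRNAs for glutamate, tryptophan and tyrosine in the organelle. They had 1 pair each and 0 calls at p 0.01 or 0.05, beside the shares of all pairs given above for cytosolic synthetases. The values of YARS2 were −0.70 (p 0.174), 0.39 (p 0.493) and 0.45 (p 0.470), with errors of 0.52 to 0.62, at a distal end followed by A-rich sequence. EARS2 stood at 0.64, 1.13 and 0.46 and WARS2 at −0.39, −1.42 and −0.42, with errors of 0.69 to 1.10. Neither EIF1AD (−0.29, −0.09 and −0.81, p 0.194 after double KD) nor EIF3J-DT gave a call.

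**Figure D3:**
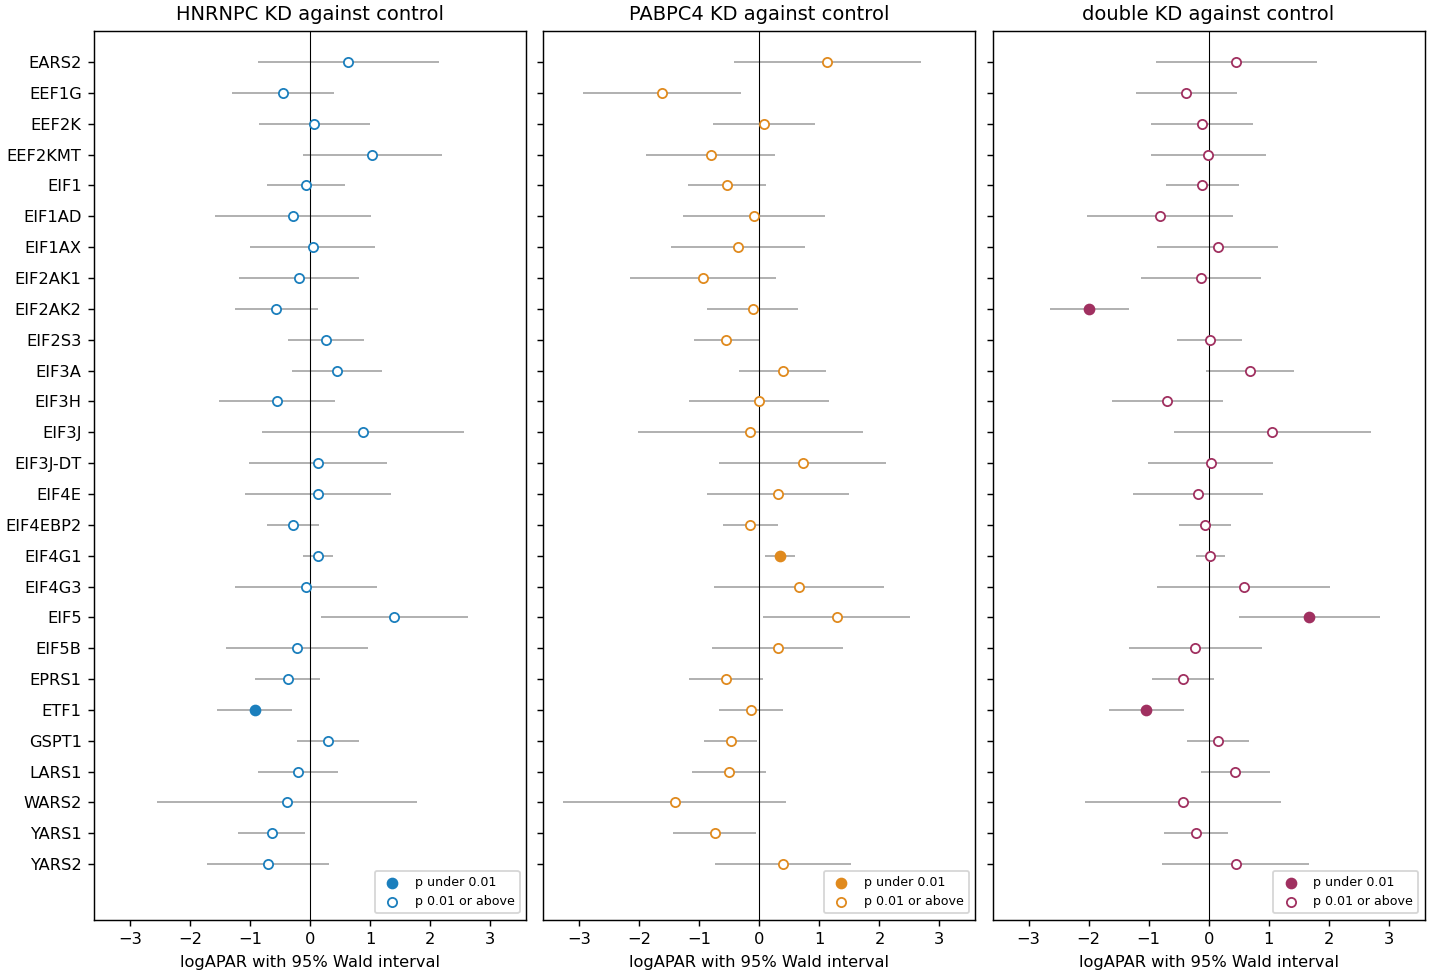
For each of the 27 genes with a pair in all 3 tables, the pair with the smallest mean error is drawn, with logAPAR on the horizontal axis (natural log, 95% Wald interval as a line) after HNRNPC KD, PABPC4 KD and double KD against control; filled points passed p 0.01. Filled are ETF1 after HNRNPC KD, EIF4G1 after PABPC4 KD and EIF2AK2, EIF5 and ETF1 after double KD, and most intervals span 0.

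The design also asks whether loss of HNRNPC moves a pair the same way with PABPC4 present (HNRNPC KD against control) and with PABPC4 depleted (double KD minus PABPC4 KD), 2 comparisons without a common library. Of the 49 shared pairs, 28 had the same sign in both (57.1%), beside 55.9% of all 4692 shared pairs. ETF1 had a negative value in each (−0.93 and −0.90), and so did EIF2AK2 site 3 against the distal end (−0.57 and −1.88). EIF5 was positive in each (1.40 and 0.39), while LARS1 had opposite signs (−0.21 and 0.95). For loss of PABPC4, with HNRNPC present or depleted, 27 of 49 pairs had the same sign (55.1%), beside 50.0% of all shared pairs. Neither share of these genes lay far from that of all genes.

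**Figure D4:**
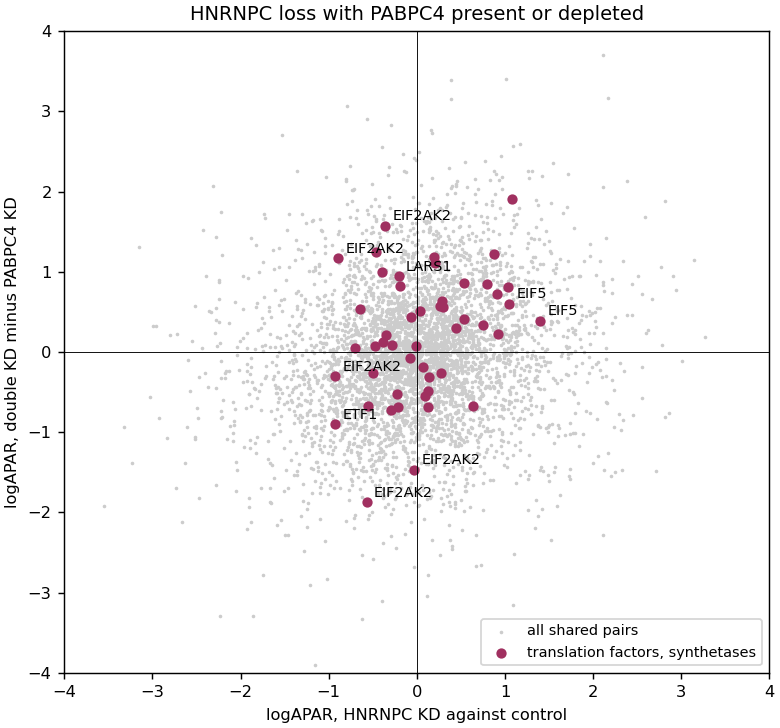
Each point is 1 of the 4692 pairs in all 3 tables, with logAPAR of HNRNPC KD against control on the horizontal axis and double KD minus PABPC4 KD on the vertical axis (both natural log); the 49 pairs of translation factors and tRNA synthetases are coloured. ETF1 and the EIF2AK2 pair at −1.88 lie at the lower left, and 28 of the 49 points have the same sign on both axes.

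The annotated ends of these genes were described next by features that the choice of genes did not use. Of 39 placed ends, 26 held AATAAA or ATTAAA in their last 30 bases on the transcript strand (66.7%), beside 59.7% of all 4220 placed transcript ends in the tables. A run of 5 T in the last 100 bases, the DNA form of the U run that HNRNPC binds, was found at 10 of 39 ends (25.6%), beside 34.6% of all. It was present at the proximal GSPT1 end and the retained-intron ends of EIF1 and EIF5, and the annotated distal ends of EIF2AK2 and ETF1 lacked it. A-rich downstream sequence, 6 A in a row or 12 or more A within 20 bases, followed 3 ends (7.69%), beside 9.55%. Of the 39 ends, 29 (74.4%) belonged to protein-coding transcripts, beside 75.5%. Sites of a pair that could be measured in 1 build lay 402 to 56995 nt apart, with a median of 3488 nt over 38 pairs.

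Other genes that act in translation were taken from a list of 55, among them poly(A)-binding protein partners, ribosome rescue and recycling factors, mTOR signalling, mitochondrial factors and tRNA modification. The tables listed 22 of them after HNRNPC KD, 21 after PABPC4 KD and 26 after double KD, and the median logAPAR of their 37, 30 and 36 pairs was 0.24, 0.33 and 0.19. Calls at p 0.01 numbered 0, 0 and 2, beside 2.08%, 0.756% and 4.33% of all pairs. At p 0.05 the counts were 3, 2 and 3 pairs, beside 6.77%, 4.03% and 9.12% of all pairs. In double KD PAIP2, which binds poly(A)-binding protein and represses translation, had a logAPAR of −2.11 (standard error 0.69, p 0.00229, adjusted p 0.0841 in the APAlog table), and after PABPC4 KD the same pair stood at −2.20 (0.96, p 0.0214). DTD1, which removes D-amino acids from tRNA, had a logAPAR of 2.56 after double KD (standard error 0.79, p 0.00121, adjusted p 0.0531).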

How the data were processed

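RNA 3′ ends of 8 MDA-MB-231 samples (4 groups, 2 replicates each) were sequenced by the authors with QuantSeq REV. Their notes name UMI-tools, Salmon 0.14.1 and hg38. The methods describe reads counted at distinct Gencode release 33 transcript ends and normalised. Of the 97 sites described here, 51 are named by positions instead, and how these were defined is not stated. APAlog, a multinomial logistic regression, gave the deposited values: logAPAR, a natural log of a fold change, with the authors' raw p-value and adjusted p-value (Benjamini-Hochberg) for each pair of sites. These columns are the authors' own comparisons of KD groups with control and are printed as their values, since the tables hold 0 columns per sample. The methods call the sequencing samples biological duplicates.

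From these, Wald standard errors were recovered (the absolute logAPAR over the normal quantile of its p), 95% intervals and differences between tables were formed over whole tables, and p-values were two-sided normal. Normalised reads were solved at genes with 3 or more shared sites, with the variance of a site taken as the inverse reads in control plus those in KD; the stated sign fitted better than its opposite at 100% of 681 genes. Intervals cover counting error only. The solving of reads and the tests of differences were tried on simulated data, drawn without a shared control. The other steps were not tested in this way. Named pairs were those past p 0.01 in a table or difference and, for groups without one, the pair of smallest p in double KD; others named in the text were chosen after their values were seen. The genes, groups and lists were chosen with earlier results of these data known. Alternatives were stricter thresholds (p 0.001; adjusted p 0.05), 1 outermost pair of sites per gene, absolute logAPAR of at most 5, pairs in all 3 tables and errors from solved reads. Sequences came from hg38 with Gencode release 44. Python 3.11.15, NumPy 2.4.6, pandas 2.3.3, SciPy 1.17.1 and matplotlib 3.10.9 were used.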

Additional observations from a re-analysis of the deposited data

Results flagged for a closer look

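The EIF2AK2 pair of site 3 and the distal end differed between KD groups by a test of the difference itself, in which the control cancels. In double KD minus PABPC4 KD it was −1.88 (upper-bound p 0.000258, Benjamini-Hochberg adjusted p 0.0466), and in double KD minus HNRNPC KD it was −1.42 (upper-bound p 0.00354, adjusted p 0.308). Both p-values leave out the spread between the 2 replicates.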

How the results depend on the processing

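No paired analysis was possible because no library has values of its own in the tables, and leaving out each replicate in turn was not run for the same reason. Among 108 values recomputed, 87 were counted as unchanged and 21 were not. The unchanged include medians that changed sign or moved by more than 1.5 times, given below. Of the 108, 75 are values of named pairs, and 66 of these were unchanged. Most of the 75 set the same logAPAR against a stricter threshold. A pair that had not passed p 0.01 could not change there, so no stability is read from these. An adjusted p of 0.05 (Benjamini-Hochberg) left 0 (HNRNPC KD), 0 (PABPC4 KD) and 2 (double KD) pairs, and 0 in double KD minus HNRNPC KD. At p 0.001 there were 0, 0 and 1 pairs in the 3 tables, beside 0.819%, 0.118% and 2.17% of all pairs. Both stricter thresholds lower counts by construction. With only the outermost pair of sites of each gene, which tests fewer pairs, 1 pair of 32 was left in double KD (all genes 4.10%), and 0 of 27 in double KD minus PABPC4 KD (1.74%) and in double KD minus HNRNPC KD (1.63%); the EIF2AK2 pair is not an outermost pair. Errors from solved reads, available for 30 pairs, gave 2 in double KD minus PABPC4 KD and 1 in the departure from additivity. An absolute logAPAR of at most 5 changed no count or median of the 3 tables, and pairs in all 3 tables changed no count of those tables. The median logAPAR after double KD, 0.17, was 0.027 over pairs in all 3 tables and 0.012 with outermost pairs; that after HNRNPC KD, 0.014, was 0.040 and −0.074; that after PABPC4 KD, −0.14, was −0.14 and −0.15. No error was computed for a median, so the size of these moves was not tested. Depth limited most pairs, with standard errors near 0.8.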
